A study of Mus musculus with 16 samples.

Results

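Transcripts of 10 antioxidant enzymes were followed in 16 RNA-seq libraries of sorted mouse muscle cells. The 10 genes, taken by their symbols out of the 24341 symbols in each library, are Sod1, Sod2 and Sod3 (superoxide dismutases), Cat (catalase), Gpx1, Gpx3 and Gpx4 (glutathione peroxidases), Gclm, Hmox1 and Nqo1. All 10 were among the 12954 genes with at least 1 FPKM (fragments mapped per length of transcript and per size of library, the authors' unit) in at least 2 libraries, and these 12954 were tested. All mice were C57BL/6 and from 2 to 3 months old, and all cells came from digested muscle through 1 gate used for muscle stem cells, which kept alpha-7 integrin+ CD34+ cells and dropped those with Sca-1, CD45, CD31 or CD11b. The groups p53WT and p53KO (3 libraries each) and p53WT_G2 and p53KO_G2 (2 each) came from hind limb muscles, while p53WT_3dai and p53KO_3dai (3 each) came from the Tibialis Anterior, so that the 3dai comparisons also compare muscles. The genotype labels say p53 WT or p53KO and no more. The suffixes 3dai and G2 are kept as written, and the title of the series names a Duchenne model. Which promoter or Cre made the knockout, and any Dmd genotype, remain not given in the sources used here.

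Superoxide, which leaks from respiration and is made by oxidases, is turned into hydrogen peroxide by the superoxide dismutases, and catalase and the glutathione peroxidases turn the peroxide into water. The peroxidases draw on glutathione, whose synthesis is set by glutamate-cysteine ligase, and glutathione is kept reduced with NADPH. The transcription factor NRF2, held down by KEAP1, is the known activator of Hmox1, Nqo1, Gclm and many of their companions through the antioxidant response element, and redox balance is known to bear on the rest, activation and differentiation of muscle stem cells.

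The genotype labels were checked on Trp53, which was lower in every p53KO library than in every p53WT library of the same kind (6.34 to 12.2 against 39.9 to 53.9 FPKM with no suffix, 34.9 to 45.7 against 134 to 161 in 3dai, and 16.7 to 19.8 against 59.9 to 71.0 in G2). FPKM summed to between 423303 and 616485 a library, and the sequencing depth is unknown. Pax7, the defining factor of muscle stem cells, was at 5.22 to 97.1 FPKM, while Pecam1 (endothelium), Itgam and Ptprc (blood cells) reached at most 2.09, 0.286 and 0.00898. Other markers of those cells reached more, with the endothelial Esam and Cdh5 at up to 16.0 and 7.52 and the macrophage Lyz2 and Cd68 at up to 14.6 and 8.18. Two-sided p-values come from limma on log2(FPKM + 1), fitted over all 6 groups and adjusted by Benjamini-Hochberg over all 12954 genes, and a gene is called at an adjusted p under 0.05. Differences are on that log2 scale, which understates the change of low genes. Nothing in the labels says that replicates came from separate mice, so the p-values measure only the spread between these libraries. In RNA from many cells, fewer cells of a type and less RNA per cell cannot be told apart. The p53WT libraries are the baseline of both p53WT comparisons and the p53KO libraries of both p53KO comparisons, so those comparisons share samples and their values are given side by side.

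The upstream sequences of 4 members are shown because these genes moved in different ways: Gpx1 and Gpx3 in opposite directions, Gclm down, and Sod1 up in p53WT_3dai. Each is the stretch of 250 bases before the annotated start on the coding strand, from RefSeq (GRCm38.p6, the build of the deposited mm10 coordinates), with matched motifs in capitals.
Gpx1 promoter: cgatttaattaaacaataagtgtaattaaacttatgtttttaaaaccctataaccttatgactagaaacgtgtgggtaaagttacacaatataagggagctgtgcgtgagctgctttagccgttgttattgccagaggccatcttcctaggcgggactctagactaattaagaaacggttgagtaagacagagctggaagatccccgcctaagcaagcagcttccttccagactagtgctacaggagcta
Gpx3 promoter: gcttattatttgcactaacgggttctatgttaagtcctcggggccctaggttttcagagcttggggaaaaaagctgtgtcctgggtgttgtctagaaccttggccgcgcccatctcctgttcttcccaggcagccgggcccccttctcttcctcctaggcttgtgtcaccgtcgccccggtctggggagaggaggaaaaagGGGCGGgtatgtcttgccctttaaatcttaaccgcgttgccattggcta
Gclm promoter: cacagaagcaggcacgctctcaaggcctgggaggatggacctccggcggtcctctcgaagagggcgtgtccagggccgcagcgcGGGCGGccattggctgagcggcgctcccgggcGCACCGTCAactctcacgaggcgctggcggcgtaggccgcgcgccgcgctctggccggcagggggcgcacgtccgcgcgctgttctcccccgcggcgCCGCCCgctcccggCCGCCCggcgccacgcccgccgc
Sod1 promoter: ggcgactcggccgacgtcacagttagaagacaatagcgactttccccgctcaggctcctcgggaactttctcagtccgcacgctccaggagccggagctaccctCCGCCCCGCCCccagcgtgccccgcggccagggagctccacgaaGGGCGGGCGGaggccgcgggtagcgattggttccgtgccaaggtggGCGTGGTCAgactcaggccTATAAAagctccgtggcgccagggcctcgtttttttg
The stretches lie at chr9:108338830-108339079, chr11:54902604-54902853, chr3:122245307-122245556 and chr16:90220512-90220761, all on the plus strand. The RefSeq span of the Gclm gene begins earlier, at 122245487, so the end of its stretch lies inside that span. The deposited Sod1 locus begins at 90220742, likewise inside its stretch. In the deposited mm10 coordinates the genes themselves lie as follows: Gpx1 at chr9:108339080-108340344, Gpx3 at chr11:54902854-54910382, Sod1 at chr16:90220742-90226324, Sod2 at chr17:13007839-13018119, Sod3 at chr5:52363804-52369738, Cat at chr2:103453904-103485153, Hmox1 at chr8:75093618-75100593 and Gclm at chr3:122245557-122267215. The motifs searched on both strands were the antioxidant response element core TGACNNNGC, the GC box GGGCGG bound by SP factors, and the TATA box TATAAA. The element core was found in 2 of the 8 members in the promoter table, on the minus strand at 134 to 126 bases before the start of Gclm and at 56 to 48 bases before that of Sod1, and in 10.2% of 32851 such windows. A GC box was found in 7 of the 8, all but Gpx1 (32.7% of windows), and a TATA box in Nqo1 and Sod1 (12.4% of windows). The 8 members have 11 windows, Gpx4 having several, and a member counts if any window matches. Counts of members and shares of windows are therefore not alike. In Sod1, GC boxes overlap one another. Gpx1, at 42% G and C, has none of the 3 motifs in this window, while Gclm, at 78.4%, has the element core and 3 GC boxes. Sod3 and Hmox1 were not matched in the table. A match is only a description of the letters.

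Among the glutathione peroxidases, Gpx3 and Gpx1 moved in opposite directions. Gpx3, the secreted plasma form, was one of the most abundant transcripts of the cells with no suffix and was far lower in 3dai and, less so, in G2, while Gpx1, the form of the cytosol and mitochondria, went the other way. Gpx3 stood at 3753, 3417 and 3020 FPKM in p53WT and at 3255, 3277 and 2981 in p53KO. It stood at 30.4, 28.6 and 28.2 in p53WT_3dai and at 78.6, 28.7 and 26.1 in p53KO_3dai. In G2 it was 354 and 286 in p53WT_G2 and 353 and 505 in p53KO_G2. The 3 kinds of library did not overlap in either genotype, and the G2 libraries lay between the other two kinds. By mean FPKM, Gpx3 ranked 6th of all symbols in p53WT and 8th in p53KO, and 3096th and 2069th in the matching 3dai groups.

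Gpx3 fell by 6.81 (SE 0.30, adjusted p = 3.41e-10) from p53WT to p53WT_3dai, a ratio of mean FPKM of 117, and differed by -6.31 (SE 0.30, adjusted p = 6.65e-10) from p53KO to p53KO_3dai, a ratio of 71.3. From p53WT to p53WT_G2 it fell by 3.41 (SE 0.34, adjusted p = 3.79e-06) and from p53KO to p53KO_G2 by 2.91 (SE 0.34, adjusted p = 1.72e-05). It was higher in G2 than in 3dai by 3.41 (adjusted p = 1.08e-05) in p53WT and by 3.4 (adjusted p = 1.12e-05) in p53KO.

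Gpx1 was 22, 58.3 and 37.4 FPKM in p53WT and 56.9, 34.9 and 44.9 in p53KO. It was 227, 213 and 329 in p53WT_3dai, and 225, 265 and 254 in p53KO_3dai. The G2 libraries had 158 and 188 in p53WT_G2, and 189.6 and 143 in p53KO_G2. Every 3dai and G2 library was above every library with no suffix. Gpx1 rose by 2.76 (SE 0.29, adjusted p = 1.30e-06) in p53WT_3dai and by 2.44 (adjusted p = 4.33e-06) in p53KO_3dai over the libraries of the same genotype with no suffix, and by 2.21 (adjusted p = 1.36e-04) in p53WT_G2 and 1.86 (adjusted p = 5.52e-04) in p53KO_G2. The G2 and 3dai groups did not overlap either, but the differences of -0.54 and -0.58 were not called (adjusted p = 0.249 and 0.209).

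Gpx4, the peroxidase that reduces lipid peroxides within membranes, stayed within 55.1 to 124 FPKM over the 16 libraries, with group means from 75.9 to 96.6. It was called in none of the 11 comparisons (9 between groups and 2 interactions), and all 6 groups overlapped their neighbours in order. Gpx4 is listed over a locus of 672.3 kb where RefSeq gives 9.27 kb, and RefSeq names the pseudogenes Gpx4-ps1 and Gpx4-ps2, so its level is uncertain. Of the other glutathione peroxidases, 5 were listed and 2 tested, and Gpx8, the form of the endoplasmic reticulum, rose by 1.55 (adjusted p = 0.00133) in p53WT_3dai and by 2.33 (adjusted p = 3.78e-04) in p53WT_G2.

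In FPKM, which is per length and so allows levels of genes to be set side by side, Gpx3 made up 95.3% to 97.0% of the summed Gpx1, Gpx3 and Gpx4 in the 6 libraries with no suffix. It made up 6.18% to 9.26% in p53WT_3dai and 7.32% to 19.4% in p53KO_3dai, where Gpx1 held 55.6% to 73.5% over both groups. In G2 the Gpx3 share was 52.3% and 59.9% in p53WT_G2 and 53.3% and 70.3% in p53KO_G2. All 10 members together held 0.767% to 1.11% of the FPKM sum with no suffix, 0.137% to 0.213% in 3dai and 0.234% to 0.363% in G2. The sum of the 3 peroxidases went from 3097 to 3899 FPKM with no suffix to 309 to 457 in 3dai and 546 to 718 in G2.

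**Figure D1:**
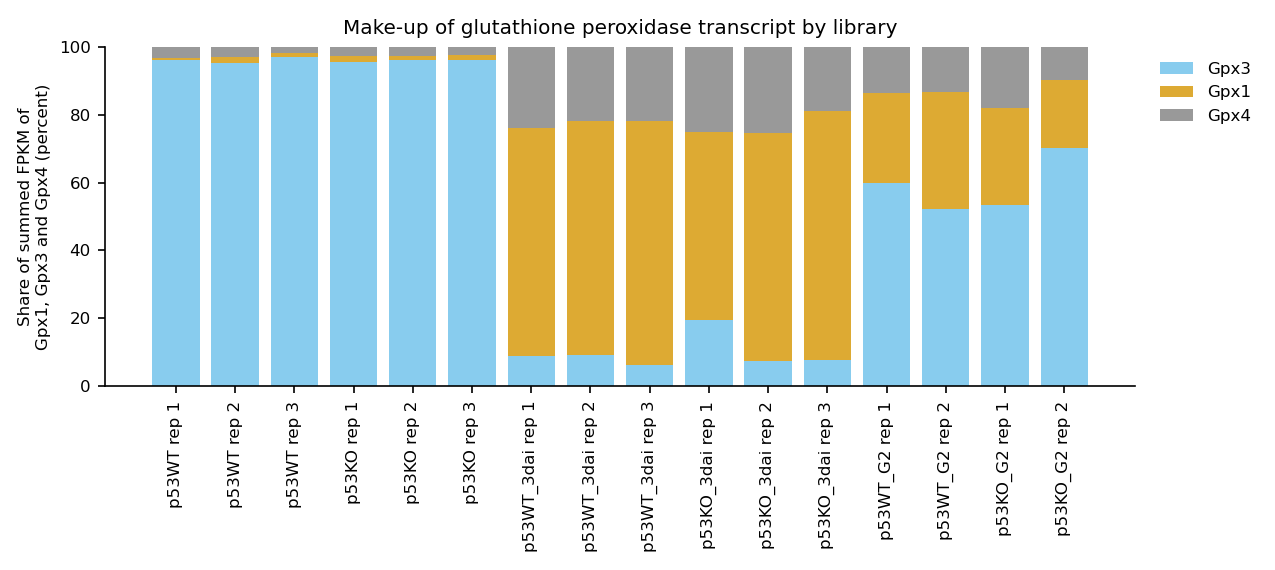
Stacked bars give, for each of the 16 libraries, the percent of the summed FPKM of Gpx1, Gpx3 and Gpx4 that each gene holds. Gpx3 fills 95.3% to 97.0% of the bars with no suffix, 6.18% to 19.4% of the 3dai bars and 52.3% to 70.3% of the G2 bars.

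The superoxide dismutases behaved differently from one another. Sod3, the secreted form bound to the matrix outside cells, was 25.2, 37.7 and 28.3 FPKM in p53WT and 36.7, 25.6 and 25.4 in p53KO. It was 1.26 and 1.49 in p53WT_3dai replicates 1 and 2, is listed at 0 in replicate 3, and was 2.84, 1.58 and 0.709 in p53KO_3dai. In G2 it was 26.4 and 15.4 in p53WT_G2 and 14.1 and 14.9 in p53KO_G2. The 3dai libraries were lowest in both genotypes, with no overlap with any other group.

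Sod3 fell by 4.12 (SE 0.37, adjusted p = 3.28e-07) in p53WT_3dai and by 3.54 (SE 0.37, adjusted p = 1.44e-06) in p53KO_3dai against no suffix, and was higher in G2 than in 3dai by 3.57 (adjusted p = 4.25e-05) in p53WT and 2.59 (adjusted p = 5.10e-04) in p53KO. Against no suffix the G2 differences were -0.55 (adjusted p = 0.358) in p53WT and -0.94 (adjusted p = 0.101) in p53KO. The p53KO value became a call at -1.40 (adjusted p = 0.0141) with quantile normalization and at -1.35 (adjusted p = 0.0197) with median-of-ratios scaling.

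Sod1, the copper and zinc enzyme of the cytosol, was the most abundant dismutase, with 81.9% to 94.6% of the summed FPKM of the 3. It was 345, 329 and 257 FPKM in p53WT, 332, 327 and 253 in p53KO, 429, 434 and 563 in p53WT_3dai, and 406, 377 and 427 in p53KO_3dai. In G2 it was 273 and 299.8 in p53WT_G2 and 357 and 244 in p53KO_G2. All 6 libraries of 3dai were above all others. Sod1 rose by 0.61 (SE 0.19, adjusted p = 0.0115) in p53WT_3dai, and the p53KO_3dai difference of 0.41 (SE 0.19, adjusted p = 0.0734) was not called. With small RNA and mitochondrial names left out, the p53KO_3dai difference became a call at 0.52 (adjusted p = 0.0308). Sod1 was lower in p53WT_G2 than in p53WT_3dai, at -0.72 (adjusted p = 0.0228). The p53WT_3dai rise was lost under median-of-ratios scaling (0.21, adjusted p = 0.375), and without p53WT replicate 3 (0.48, adjusted p = 0.0516) or p53WT_3dai replicate 3 (0.49, adjusted p = 0.0594), and the lower level in G2 was lost without p53WT_3dai replicate 3 (-0.59, adjusted p = 0.0845). It was also lost without p53WT_G2 replicate 1 (-0.65, adjusted p = 0.153) or 2 (-0.79, adjusted p = 0.0881), which leaves 1 library that is assumed to vary like the other groups.

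Sod2, the manganese enzyme of mitochondria, lay between 22.8 and 34.8 FPKM in 15 of the 16 libraries and at 8.68 in p53KO replicate 3, and it was called in no comparison. Cat, the peroxisomal enzyme that splits hydrogen peroxide, was 10.8, 11.4 and 14.9 FPKM in p53WT against 25.8 and 18.3 in p53WT_G2, and over all libraries lay between 9.63 and 25.8. The p53WT_G2 difference for Cat, 0.78 (SE 0.32, adjusted p = 0.0855), was not called. These groups did not overlap, and how many of all genes lie apart in this way was not computed. With array weights the Cat difference was 0.76 (adjusted p = 0.0492), and over the alternative settings its adjusted p ran from 0.0369 to 0.453.

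**Figure D2:**
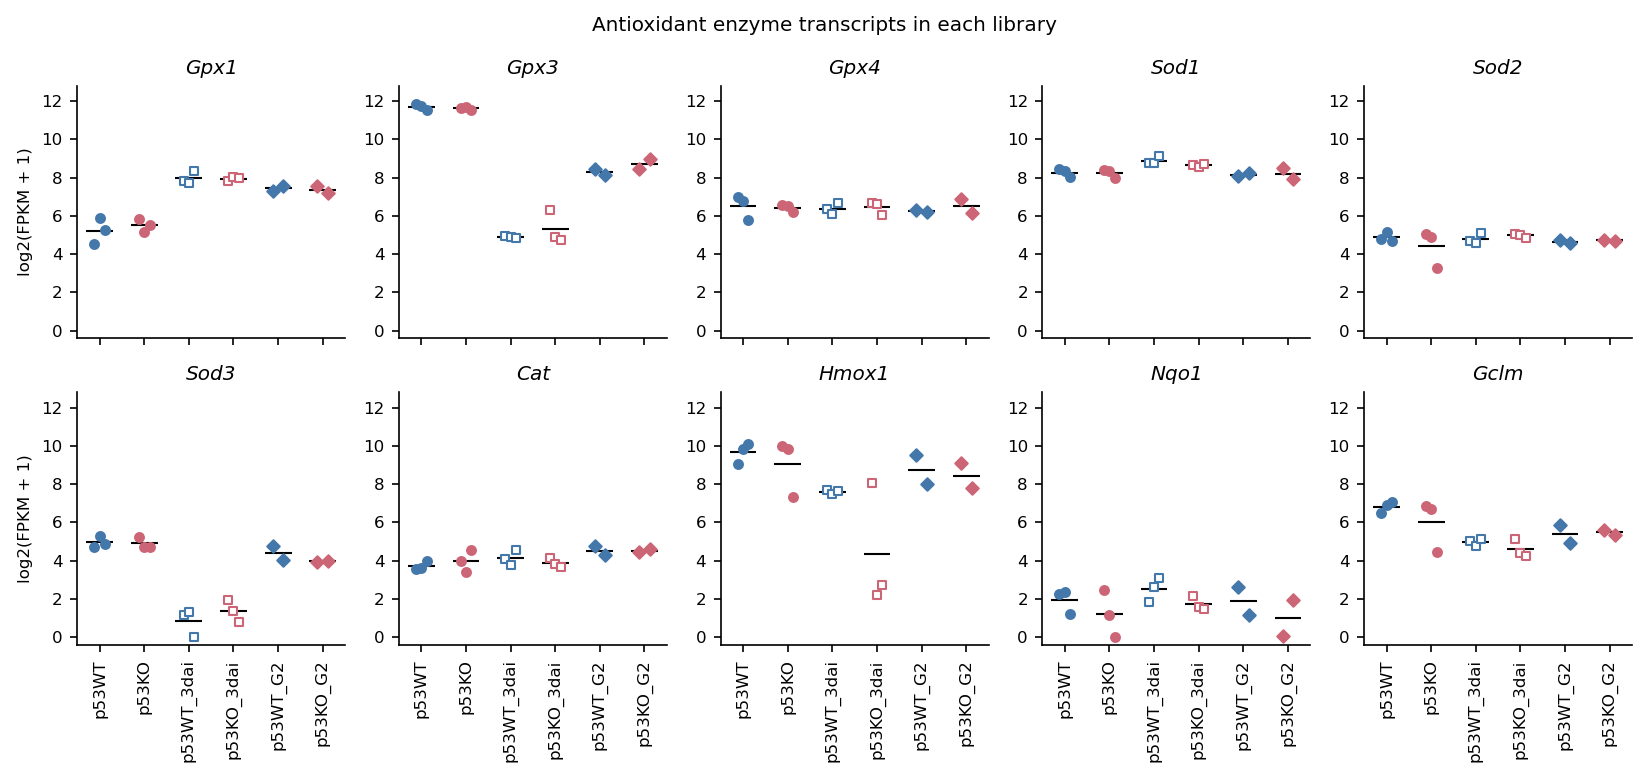
Each panel gives 1 member in every library as log2(FPKM + 1) on a common axis, circles for no suffix, open squares for 3dai and diamonds for G2, in blue for p53WT and red for p53KO, with the group mean as a line. Gpx3 and Sod3 are lowest in 3dai, Gpx1 is highest there, Gpx4 is level, and Hmox1 is split within p53KO_3dai.

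The 3 members known as NRF2 targets were Gclm, Hmox1 and Nqo1. Gclm, the modifier subunit that speeds glutamate-cysteine ligase, was 87.7, 118 and 131 FPKM in p53WT and 115, 103 and 20.7 in p53KO. It was 31.5, 26.2 and 33.9 in p53WT_3dai, 34.5, 19.8 and 18 in p53KO_3dai, 58.0 and 29.2 in p53WT_G2, and 47.3 and 40.2 in p53KO_G2. All p53WT libraries were above all p53WT_3dai and p53WT_G2 libraries, whereas p53KO replicate 3 lay within the range of p53KO_3dai. Gclm fell by 1.83 (SE 0.48, adjusted p = 0.00470) in p53WT_3dai and by 1.41 (SE 0.48, adjusted p = 0.0223) in p53KO_3dai. In G2 the differences were -1.40 (adjusted p = 0.0649) in p53WT and -0.52 (adjusted p = 0.503) in p53KO. The p53WT_G2 value became a call with quantile normalization (-1.60, adjusted p = 0.0324), with median-of-ratios scaling (-1.83, adjusted p = 0.0211), in the fit of its own groups (adjusted p = 0.0150) and with array weights (adjusted p = 0.0105). The p53KO_3dai fall was lost without p53KO replicate 1 (-0.98, adjusted p = 0.12) or 2 (-1.06, adjusted p = 0.107), without p53KO_3dai replicate 2 (-1.30, adjusted p = 0.0664) or 3 (-1.24, adjusted p = 0.0781), and in the fit of its own groups (adjusted p = 0.0846), and without p53KO replicate 3 the p53KO_G2 difference became a call at -1.30 (adjusted p = 0.00951). RefSeq places Gm46822 and Gm6061 over Gclm, and no source used here says whether counting used strand, so reads may be shared.

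Hmox1, heme oxygenase 1, breaks down haem to biliverdin, iron and carbon monoxide. By the standard deviation as a percent of the mean, it varied most of the members within 1 group (164.5% in p53KO_3dai). It was 527, 904 and 1107 FPKM in p53WT, and 1019, 933 and 159 in p53KO. In p53WT_3dai it was 207, 179.8 and 196. In p53KO_3dai it was 264 in replicate 1 but 3.58 and 5.56 in replicates 2 and 3. In G2 it was 745 and 253 in p53WT_G2 and 545 and 221 in p53KO_G2. The 2 low p53KO_3dai libraries were far below all 14 others, and the third of that group was above every p53WT_3dai library.

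Hmox1 fell by 4.74 (SE 1.12, adjusted p = 0.00225) from p53KO to p53KO_3dai, although these groups overlap, and was higher in p53KO_G2 than in p53KO_3dai by 4.12 (SE 1.25, adjusted p = 0.0273). The p53WT_3dai difference of -2.05 (SE 1.12, adjusted p = 0.138) was not called, although all 3 libraries lay below all p53WT libraries; in a fit of those 6 libraries alone it was called (adjusted p = 1.97e-04). With p53KO_3dai replicates 2 and 3 left out together, a choice made after seeing the data, the 2 called values became -1.01 (adjusted p = 0.394) and 0.39 (adjusted p = 0.854), with 1 p53KO_3dai library left that is assumed to vary like the other groups. The G2 value was also lost without any 1 library of p53KO_G2, without p53KO_3dai replicate 2 (3.06, adjusted p = 0.111) or 3 (3.32, adjusted p = 0.106), and in the fit of its own groups.

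Some other genes of the fixed lists, picked after their values were seen, were split in the same libraries. How many of the list genes were split in this way was not computed. The split was not confined to these genes. Without replicate 1, limma called 41 of 12919 genes higher and 473 lower in p53KO_3dai than in p53WT_3dai (adjusted p under 0.05). Nfe2l2, which codes NRF2, was 92.5 FPKM in p53KO_3dai replicate 1 and 13.7 and 13.0 in replicates 2 and 3, against 80.6 to 89.3 in p53WT_3dai. Srxn1, which restores oxidised peroxiredoxins, was 77.4, 10.8 and 12.5 in p53KO_3dai, and Txnrd1, thioredoxin reductase 1, was 229, 134 and 134. Gclc, the catalytic partner of Gclm, was 52.9, 19.3 and 19.3. These 2 libraries also stood apart elsewhere. The heat shock gene Hspa1a was 332 and 366 FPKM there and 5.37 to 10.2 in the other 3dai libraries, and the small RNA name Mir6236 made up 9.81% and 10.1% of their FPKM sum, against 0.277% to 2.36% in the others. Their Schwann cell markers summed to 12.2 and 5.85 FPKM against 66.7 in replicate 1. Their macrophage markers summed to 6.96 and 9.35, of which Cd68 gave 6.31 and 8.18, against 2.87 in replicate 1. The macrophage sums were 0.559 to 4.96 in p53WT_3dai and 5.56 to 16.9 in p53WT, so they were not highest in these 2 libraries. Csf1r, the macrophage receptor, was at 0 in all 16 libraries. The part of these in the Hmox1 values was not tested.

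p53KO replicate 3 was the other library that stood apart in several members, with Hmox1 at 159, Gclm at 20.7, Sod2 at 8.68 and Nqo1 at 0 FPKM, and Cat at 22.6, the highest of the 6 libraries with no suffix. Txnrd1 was 164 there against 465 and 472 in the other p53KO libraries, and Srxn1 was 319 against 717 and 760. Nfe2l2, at 109, was near the 126 and 129 of those libraries. Fos, an early response gene, was 4273 FPKM in this library and 604 to 1892 in the others with no suffix. Its part in these values was not tested.

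**Figure D3:**
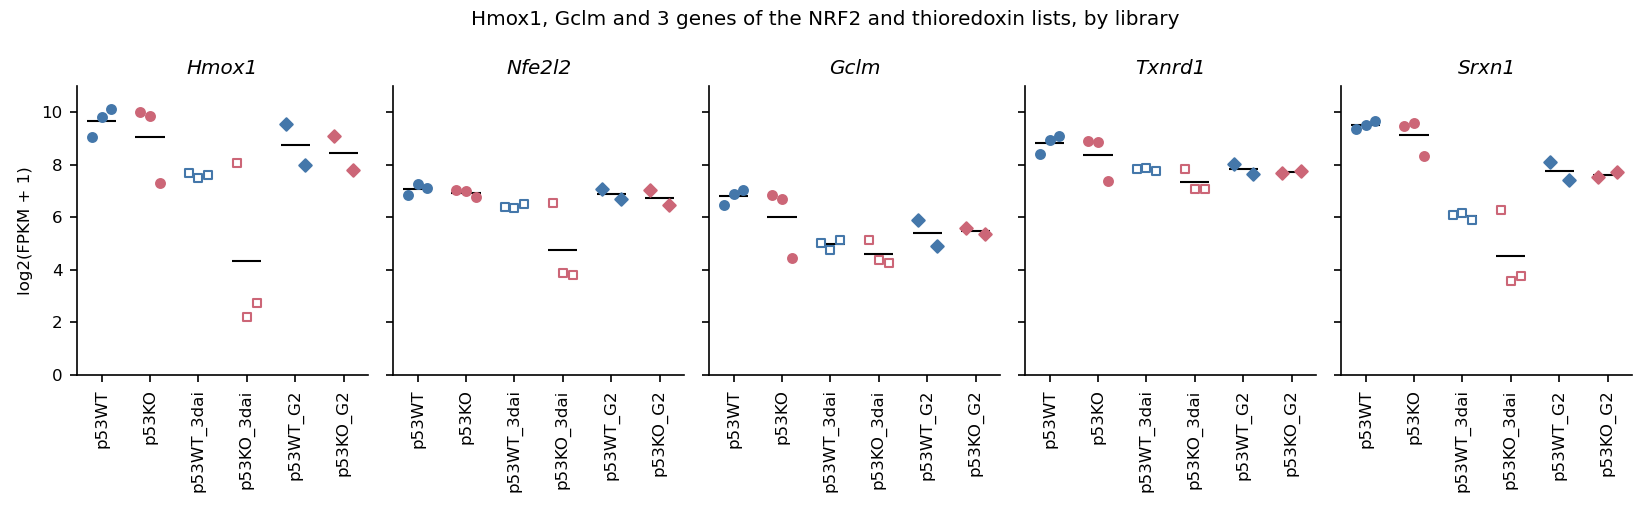
Panels give log2(FPKM + 1) of Hmox1, Nfe2l2, Gclm, Txnrd1 and Srxn1 in each library, with the group mean as a line and the symbols of the plot of all members. In p53KO_3dai, 2 libraries lie below the third in all 5 panels, and in p53KO 1 library lies lowest in all 5.

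Nqo1, a quinone reductase that uses NADPH or NADH, was low throughout, from a listed 0 in p53KO replicate 3 to 7.57 FPKM in p53WT_3dai replicate 3, with a median of 2.69. Its groups overlapped in every comparison and it was called in none. Nqo1 is listed over a locus of 302.4 kb where RefSeq gives 15.0 kb, so its level is uncertain.

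The members called are given here beside the share of all tested genes called in the same direction, and with 10 members a single gene is 10% of them. From p53WT to p53WT_3dai, 2 of 10 rose (Gpx1, Sod1) and 3 fell (Gpx3, Sod3, Gclm), against 31.8% and 20.9% of the 12954 genes. From p53KO to p53KO_3dai 1 rose (Gpx1) and 4 fell (Gpx3, Sod3, Hmox1, Gclm), against 30.4% and 22.7%. From p53WT to p53WT_G2 Gpx1 rose and Gpx3 fell, against 22.1% and 5.39%, and the same 2 were called from p53KO to p53KO_G2, against 22.5% and 7.06%. Between p53WT_G2 and p53WT_3dai 2 were higher in G2 (Gpx3, Sod3) and 1 lower (Sod1), against 13.9% and 6.7%. Between p53KO_G2 and p53KO_3dai 3 were higher (Gpx3, Sod3, Hmox1) and 0 lower by limma's adjusted p (Sod1, at -0.45, had an unadjusted p of 0.0489), against 16.1% and 7.1%.

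The median difference of the 10 members was -0.12 in p53WT_3dai, where that of all genes was 0.23, and -0.25 in p53WT_G2, where that of all genes was 0.33. In p53KO the medians were -0.04 and 0.14 in 3dai, and -0.13 and 0.31 in G2. These member medians are from the main fit and are not given under other scalings. Median-of-ratios scaling lowered member differences too, as for Sod1 in p53WT_3dai (0.61 to 0.21) and Gclm in p53WT_G2 (-1.40 to -1.83). That scaling brought the medians of all genes to -0.07, 0.00, -0.10 and -0.03 in p53WT_3dai, p53WT_G2, p53KO_3dai and p53KO_G2, so these are not to be set beside the member medians above. It changed the genes called higher and lower from 4122 and 2701 to 3038 and 3558 in p53WT_3dai, from 2868 and 698 to 1637 and 1524 in p53WT_G2, from 3939 and 2944 to 3022 and 3707 in p53KO_3dai, and from 2916 and 914 to 1590 and 1644 in p53KO_G2. The calls for Gpx1, Gpx3 and Sod3 above kept their direction and side of the threshold under it and under quantile normalization.

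Between genotypes, no member was called. None of 10 passed in p53KO against p53WT (0.00772% of all genes called), in p53KO_3dai against p53WT_3dai (0.0849%) or in p53KO_G2 against p53WT_G2 (0.0695%), with limma's adjusted p, and 0, 1 and 0 members had an unadjusted p under 0.05. That member was Hmox1 in 3dai, at -3.29 (SE 1.12, unadjusted p = 0.0102, adjusted p = 0.350), where 2 of 3 p53KO_3dai libraries were below and 1 above all p53WT_3dai libraries. Without p53KO_3dai replicate 1 the value was -5.15 (adjusted p = 5.00e-04), with array weights -4.53 (adjusted p = 0.00438), and without replicates 2 and 3 it was 0.44. Those 2 settings called many more of all genes too, 41 higher and 473 lower without replicate 1 and 106 and 698 with array weights. The other differences between genotypes in 3dai ran from -0.81 for Nqo1 to 0.53 for Sod3. Sod1 was at 377 to 427 FPKM in p53KO_3dai and at 429 to 563 in p53WT_3dai (-0.23, adjusted p = 0.805). Over the alternative settings this Sod1 difference ran from -0.23 to -0.13, and with 1 library left out from -0.30 to -0.10. In G2, Sod3 was at 14.1 to 14.9 FPKM in p53KO_G2 and at 15.4 to 26.4 in p53WT_G2, and was not called. How many of all genes lie apart in this way was not computed.

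The test of whether the genotype difference itself changed from no suffix gave 0 of 10 members called in 3dai (0.0% of all genes) and 0 of 10 in G2 (0.0232%), and 0 members had an unadjusted p under 0.05 in either. The interaction was -2.69 (SE 1.59, adjusted p = 0.831) for Hmox1 in 3dai and -4.55 (adjusted p = 0.0216) without p53KO_3dai replicate 1, where 11 of all genes were called higher and 135 lower.

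**Figure D4:**
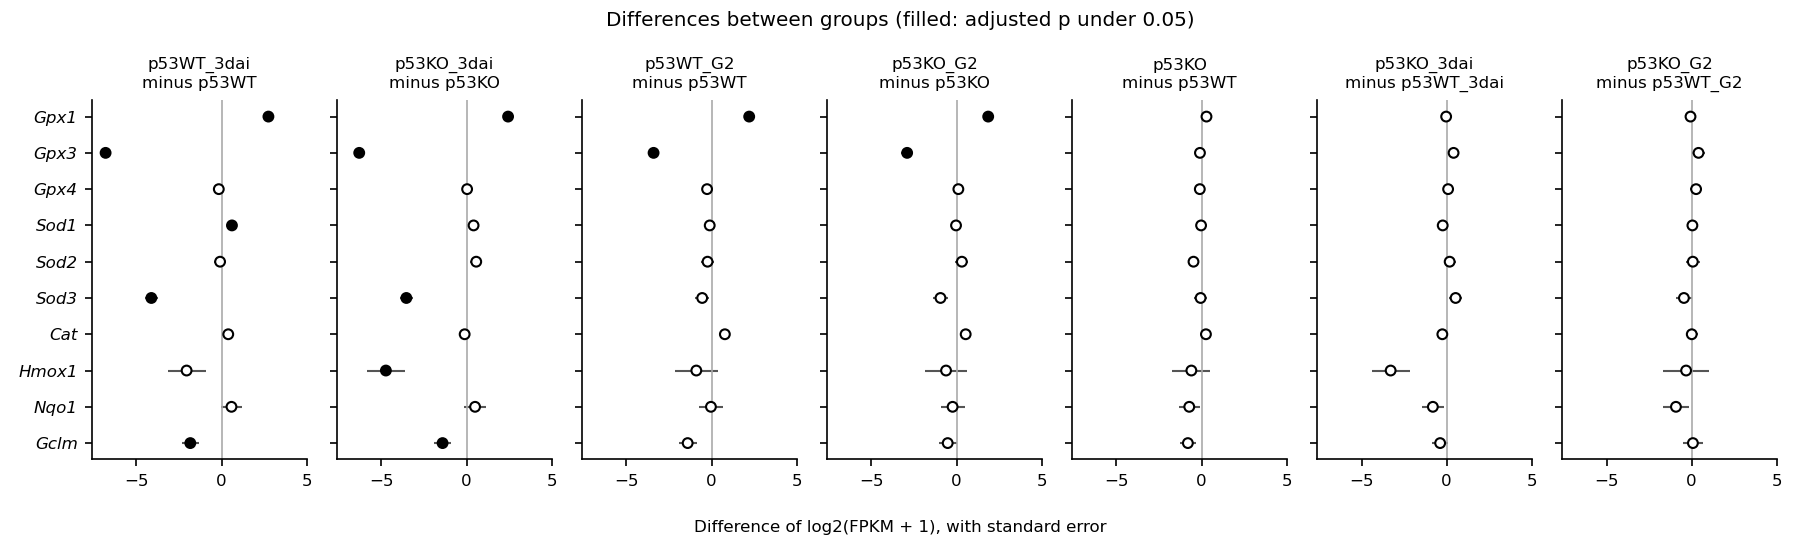
Points give each member's difference of log2(FPKM + 1) in 7 comparisons, with bars of 1 standard error from limma and filled points for an adjusted p under 0.05. Gpx3 lies farthest to the left in the 4 panels of 3dai or G2 against no suffix, and the 3 panels between genotypes hold open points only.

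The other genes of the antioxidant system were taken from 13 written lists with 159 genes in the files, of which 141 were tested. From p53WT to p53WT_3dai 52 rose and 38 fell, where 31.8% and 20.9% of all genes did, and from p53WT to p53WT_G2 36 rose and 11 fell, where 22.1% and 5.39% did. In p53KO the counts were 52 and 43 in 3dai, beside 30.4% and 22.7% of all genes, and 41 and 15 in G2, beside 22.5% and 7.06%. The counts of each list in p53WT_3dai below stand beside the same 31.8% higher and 20.9% lower of all genes. With median-of-ratios scaling the counts over all lists were 40 and 45, and 21 and 23, in p53WT, and 41 and 50, and 21 and 24, in p53KO. Under that scaling 3038 and 3558 of 12965 genes were called higher and lower in p53WT_3dai. The list counts below with that scaling stand beside these and not beside the shares of the main fit. The median over the 141 was 0.23 in p53WT_3dai against 0.23 over all genes, 0.28 in p53WT_G2 against 0.33, -0.01 in p53KO_3dai against 0.14 and 0.34 in p53KO_G2 against 0.31.

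The list of NADPH supply was the most one-sided: 11 of its 12 genes rose in p53WT_3dai, 12 in p53KO_3dai, 9 in p53WT_G2 and 11 in p53KO_G2, and none fell. Its median difference was 1.5 in p53WT_3dai, and with median-of-ratios scaling 1.16, with 11 genes called. Me2, the malic enzyme of mitochondria, went from 2.49 ± 0.92 to 68.1 ± 9.59 FPKM (SD, n = 3 each; 4.33, adjusted p = 2.82e-09), and G6pdx, the first enzyme of the pentose phosphate pathway, from 7.25 ± 1.36 to 61.7 ± 9.70 (2.93, adjusted p = 2.98e-07). Cycling cell markers moved with them, summing to 4.10 to 9.85 FPKM with no suffix, 655 to 913 in 3dai and 262 to 431 in G2, and their part was not tested.

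In glutathione synthesis and recycling, 3 of 11 rose and 2 fell in p53WT_3dai. Gsr, which reduces oxidised glutathione with NADPH, rose from 7.86 ± 1.71 to 62.5 ± 3.34 FPKM (SD, n = 3 each; 2.86, adjusted p = 1.59e-07), and by 1.77 in p53WT_G2 (adjusted p = 2.02e-04). Slc3a2, the heavy chain of amino acid transporters including that of cystine, fell by 1.02 (adjusted p = 1.26e-04). Chac2, which breaks down glutathione, rose by 1.79 (adjusted p = 0.0241), and Ggt7 fell by 1.12 (adjusted p = 0.0268). Gclc, at 0.11 (adjusted p = 0.830), was not called while its partner Gclm fell. Of 18 glutathione S-transferases, which join glutathione to electrophiles, 1 rose and 6 fell in p53WT_3dai: Gsto1 rose by 1.44 (adjusted p = 0.00606), Gstm1 fell by 2.84 (adjusted p = 1.78e-07) and Gstm2 fell by 2.67 (adjusted p = 6.53e-05). With median-of-ratios scaling 1 rose and 9 fell, and in glutathione synthesis 1 rose and 2 fell.

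In the thioredoxin, peroxiredoxin and glutaredoxin list, 11 of 20 rose and 4 fell in p53WT_3dai, and 6 rose and 5 fell with median-of-ratios scaling. Prdx2, a peroxide-reducing enzyme of the cytosol, rose from 71.2 ± 27.5 to 346 ± 50.4 FPKM (SD, n = 3 each; 2.33, adjusted p = 1.39e-06), and Glrx5, which serves iron-sulphur cluster assembly in mitochondria, rose by 2.51 (adjusted p = 3.92e-06). Srxn1 fell by 3.46 (adjusted p = 5.41e-05) and Msrb3, a methionine sulphoxide reductase, by 3.02 (adjusted p = 2.34e-07).

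Among NRF2 and its regulators, 2 of 10 rose and 5 fell in p53WT_3dai. Keap1, the adaptor that marks NRF2 for degradation, rose by 1.59 (adjusted p = 0.00207), and Rbx1, a subunit of the same ligase, by 1.70 (adjusted p = 6.34e-06). The small MAF partners Maff and Mafk fell by 5.44 (adjusted p = 4.56e-09) and 4.34 (adjusted p = 3.55e-08). Nfe2l2 differed by -0.66 (adjusted p = 0.276) in p53WT_3dai. In p53KO_3dai it fell by 2.19 (adjusted p = 0.00159), where replicates 2 and 3 were the low libraries. Of 11 other NRF2-linked detoxification genes, 5 rose and 2 fell in p53WT_3dai, with Akr1b8, an aldo-keto reductase, up by 3.82 (adjusted p = 9.59e-09), Ptgr1, prostaglandin reductase 1, up by 2.25 (adjusted p = 9.06e-06), Osgin1 at -4.25 (adjusted p = 5.33e-07), and Ephx1, an epoxide hydrolase, at -3.86 (adjusted p = 1.66e-07). With median-of-ratios scaling 5 rose and 5 fell. Ephx1 was the only gene of the 141 called between genotypes, lower in p53KO_3dai than in p53WT_3dai at 0.58 ± 0.73 against 4.55 ± 1.63 FPKM (SD, n = 3 each; -1.86, adjusted p = 0.0456). It was not called with quantile normalization (adjusted p = 0.130), with median-of-ratios scaling (0.0511) or without p53KO_3dai replicates 2 and 3 (0.733).

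The metal and selenium partners of the enzymes were mixed. In haem and iron handling 6 of 13 rose and 3 fell in p53WT_3dai: Tfrc, the transferrin receptor, rose by 1.71 (adjusted p = 4.91e-04) and Fech, which inserts iron into haem, by 1.32 (adjusted p = 3.98e-04), while Blvrb, a biliverdin reductase, and Slc40a1, the iron exporter, fell by 1.92 (adjusted p = 0.00717) and 1.84 (adjusted p = 4.77e-04). In copper and metal handling 2 of 10 rose and 5 fell: Atox1, a copper chaperone, rose by 1.56 (adjusted p = 6.56e-04) and Slc30a1, a zinc exporter, by 1.23 (adjusted p = 0.00941), while the metal transporter Slc39a14 fell by 4.48 (adjusted p = 6.47e-10) and the metallothionein Mt2 by 2.65 (adjusted p = 7.27e-06). In selenoprotein synthesis, which Gpx1, Gpx3 and Gpx4 need for the selenocysteine of their active site, 3 of 7 rose and 1 fell: Pstk, which makes the selenocysteine precursor on its tRNA, rose by 3.01 (adjusted p = 2.13e-06) and Sephs1 by 1.90 (adjusted p = 2.12e-05), while Secisbp2l fell by 1.04 (adjusted p = 4.63e-04). Of 13 other selenoproteins 4 rose and 5 fell: Ept1 rose by 2.36 (adjusted p = 8.77e-06) and Sep15 by 1.04 (adjusted p = 5.12e-04), while Sepp1, the secreted selenium carrier, fell by 4.85 (adjusted p = 9.97e-06) and Selm fell by 3.21 (adjusted p = 9.37e-04). Of 7 oxidant sources 1 rose and 4 fell, with Maoa up by 1.62 (adjusted p = 7.49e-05) and Maob down by 2.71 (adjusted p = 9.07e-05). Aox1, an aldehyde oxidase, fell by 2.38 (adjusted p = 5.78e-05). Of 7 FOXO, PGC-1 and sirtuin regulators, 2 rose and 1 fell: Ppargc1b rose by 2.36 (adjusted p = 1.48e-05) and Sirt3, the deacetylase of mitochondria, by 1.37 (adjusted p = 0.0372), while Foxo1 fell by 1.65 (adjusted p = 5.07e-04). Chac2, Slc30a1 and Sirt3 were not called with median-of-ratios scaling (adjusted p = 0.0661, 0.0536 and 0.0951) or with quantile normalization (0.0509, 0.0623 and 0.0677).

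In p53WT_G2 fewer genes of the lists were called, beside 22.1% of all genes higher and 5.39% lower. Me2 rose by 3.87 (adjusted p = 1.49e-07), and Nnt, the transhydrogenase that makes NADPH in mitochondria, by 2.70 (adjusted p = 1.08e-04). Of the thioredoxin list 5 of 20 rose and 1 fell: Prdx2 rose by 2.08 (adjusted p = 5.42e-05) and Prdx3, the peroxiredoxin of mitochondria, by 1.66 (adjusted p = 2.10e-05), while Srxn1 fell by 1.75 (adjusted p = 0.0369). Of the glutathione S-transferases 0 of 18 rose and 2 fell, Gstm1 at -1.96 (adjusted p = 8.82e-05) and Gstt3 at -1.17 (adjusted p = 0.0300), and Slc3a2 fell by 0.93 (adjusted p = 0.00199). Among NRF2 and its regulators 2 of 10 rose, Keap1 at 1.24 (adjusted p = 0.0369) and Rbx1 at 1.09 (adjusted p = 0.00269), and 2 fell, Maff at -2.71 (adjusted p = 6.57e-05) and Mafk at -1.90 (adjusted p = 9.91e-04). Of the other NRF2-linked genes 4 of 11 rose and 2 fell, with Akr1b8 at 4.34 (adjusted p = 5.32e-08), Ptgr1 at 1.80 (adjusted p = 6.59e-04), Osgin1 at -2.25 (adjusted p = 0.00179) and Ephx1 at -1.29 (adjusted p = 0.0154).

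Of the metal and selenium lists in p53WT_G2, 3 of 13 haem and iron genes rose and none fell, among them Fech at 1.58 (adjusted p = 7.33e-04) and Aco1, the cytosolic aconitase that also binds RNA, at 1.28 (adjusted p = 7.40e-04). In copper and metal handling 1 of 10 rose, Atox1 at 0.99 (adjusted p = 0.0473), and 3 fell, with Slc39a14 at -2.47 (adjusted p = 3.13e-06) and Mt2 at -1.62 (adjusted p = 0.00399). Pstk and Sephs1 rose by 2.03 (adjusted p = 8.17e-04) and 1.07 (adjusted p = 0.0125), and of the other selenoproteins Sepn1 rose by 1.77 (adjusted p = 3.23e-04) and Ept1 by 1.42 (adjusted p = 0.00508). Maoa and Cyba, a subunit of the NADPH oxidases, rose by 1.18 (adjusted p = 0.00631) and 0.94 (adjusted p = 0.0455), and Ppargc1b and Foxo4 by 1.99 (adjusted p = 6.63e-04) and 0.82 (adjusted p = 0.0417). With median-of-ratios scaling Keap1, Atox1, Sephs1, Maoa, Cyba and Foxo4 were not called (adjusted p = 0.142, 0.262, 0.104, 0.0573, 0.256 and 0.339). With quantile normalization the same 6 were not called (adjusted p = 0.207, 0.0860, 0.176, 0.0636, 0.264 and 0.331), nor was Ept1 (0.0687).

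In 3dai the marker sums of several other cells were lower, as were the secreted enzymes Gpx3 and Sod3. In G2, with the genotypes pooled, the sums for pericytes, tenocytes, endothelium and adipocytes overlapped those with no suffix, and mature fibre sums were higher. Within p53WT, tenocyte sums were higher in G2 than with no suffix (464 to 543 against 224 to 442 FPKM). Within p53KO, they were 230 to 234 in G2 against 232 to 389. Endothelial sums within p53KO were lower in G2 (13.2 to 27.2 against 27.55 to 35.6), while those within p53WT overlapped. The sums for fibro-adipogenic progenitors, Schwann cells and muscle stem cells were lower in both 3dai and G2. Of the 8 markers of fibro-adipogenic progenitors, the matrix-making cells of muscle, the sum was 1001 to 1270 FPKM with no suffix, 76.7 to 119 in 3dai and 632 to 747 in G2, with Pdgfra, their defining receptor, at 0 to 2.44 in all 16 libraries and Pi16 at 0 in all 6 of 3dai. The 9 pericyte and smooth muscle markers summed to 384 to 996, 20.2 to 59.7 and 366 to 771, the 7 Schwann cell markers to 341 to 449, 5.85 to 66.7 and 126 to 142, and the 8 endothelial markers to 25.6 to 39.8, 0.281 to 2.72 and 13.2 to 28.4. The muscle stem cell markers, 10 genes, summed to 2025 to 2857, 595 to 680 and 952 to 1278. Single markers of this list differed. Calcr was 30.6 to 72.2 FPKM with no suffix, 0 to 0.829 in 3dai and 7.32 to 14.3 in G2. Cdh15 was 35.6 to 122, 41.4 to 62.3 and 99.5 to 150. Red blood cell markers, 8 genes, summed to 3.67 to 75.3 with no suffix, 0 to 0.492 in 3dai and 0 to 19.6 in G2. The markers of mature fibres were 29.4 to 117, 34.0 to 95.4 and 449 to 1504, and all 5 neutrophil markers in the files were at 0 in all libraries. Tenocyte markers summed to 224 to 442, 36.0 to 85.8 and 230 to 543, and adipocyte markers to 11.3 to 55.9, 0 to 1.15 and 17.4 to 26.8. In every library with no suffix and every G2 library, 5 of the 6 adipocyte markers were under 1 FPKM. Plin1, Cidec and Cfd were at 0 in all 16 libraries. Macrophage markers summed to 0.509 to 16.9, 0.559 to 9.35 and 4.23 to 14.6. The immediate early and dissociation genes summed to 3406 to 19830 with no suffix, 370.5 to 1157 in 3dai and 947 to 1528 in G2, and like Maff and Mafk they were highest in the 6 libraries with no suffix. Their part in any difference was not tested. The part of these cells in the Gpx3 and Sod3 differences was not tested, nor was that of the muscle of origin, which changes with 3dai.

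Over the 16 libraries, which share groups and processing, the genes most like each member were ranked by Pearson's r of log2(FPKM + 1) among 8180 genes with a mean of at least 5 FPKM. Closest to Gpx3 were Plekhb1 (r = 0.995), Fam132b (0.994), which codes erythroferrone, and Chrdl2 (0.992), 1 of the 10 muscle stem cell markers. Among the genes closest to Sod3 were Cp (0.985) and Col4a1 (0.981), which code ceruloplasmin and a collagen IV chain. Closest to Gpx1 were Pigt (0.985), Ap1s1 (0.984) and Ndufv2 (0.980). Closest to Hmox1 were Nfe2l2 (0.972), Ndrg1 (0.954) and Slc2a1 (0.949), and closest to Gclm were Txnrd1 (0.962), Nfkb1 (0.957) and Fbxw11 (0.943). The highest values were lower for Sod1 (Ppp1r11, 0.913), Sod2 (Far1, 0.912), Cat (Bnip3, 0.858), Nqo1 (Dtwd1, 0.779) and Gpx4 (Ndufa1, 0.726). Among the members, r was 0.94 for Gpx3 with Sod3 and -0.92 for Gpx3 with Gpx1.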

How the data were processed

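RNA was measured in 16 libraries, 1 table each. Per the submitters' processing notes the authors aligned reads with STAR to mm10 and computed FPKM with Cufflinks and Cuffdiff, while versions, annotation and any use of strand remain not given in the sources used here. Total RNA was isolated, per the labels' protocols, with a Qiagen RNeasy Micro kit and prepared with a NEBNext Ultra II Directional kit. A log2(FPKM + 1) value was computed from the deposited FPKM, a gene needed 1 FPKM in at least 2 libraries, and all 6 groups were fitted in R 4.3.3 by limma 3.58.1 with a trend of the variance. The fit was tested on simulated data. Depth is unknown, so no counting error can be given. FPKM are relative: 1 very abundant transcript lowers the others.

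The members and lists were chosen with earlier results of these data known. All members are given. From each list come up to 2 largest called rises and 2 largest called falls in p53WT_3dai and p53WT_G2 against p53WT, and every gene called between genotypes. Gclc, Txnrd1, Hspa1a, Fos and Mir6236, and the values of Nfe2l2 and Srxn1 by library, were named after their values were seen. Alternatives changed the pseudocount (0.1), the filter, the scaling, the weights, the groups fitted, a replicate block and each library. A result that the rule for the most alike genes names is not reported here.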

Additional observations from a re-analysis of the deposited data

How the results depend on the processing

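Of 110 differences of the 10 members (11 comparisons), 20 were called. Over the alternatives, 318 values of the called differences kept their sign in all cases and 20 lost the call; of 1511 values of uncalled ones, 18 gained it and 116 turned in sign while uncalled. The count of members called in p53KO_3dai against p53WT_3dai, 0, became 1 (Hmox1) with array weights and ran from 0 to 1 with 1 library left out. The interaction in 3dai likewise ran from 0 to 1. In p53KO_3dai against p53KO the 5 calls became 3 without p53KO_3dai replicates 2 and 3, where Gclm was -0.85 (adjusted p = 0.364) and 1 library stands for the group. In p53WT_G2 against p53WT the 2 calls became 4 with array weights and 4 with the replicate block, which added Cat (0.92, adjusted p = 0.0369) and Gclm (-1.59, adjusted p = 0.0377); the block also added Sod3 in p53KO_G2 (-1.15, adjusted p = 0.0325) and changed no other call. The cause was not tested. Replicate numbers did not pair libraries: over 36 pairs with the same number, deviations from the group means correlated at -0.159 to 0.127, and 9 of 16 libraries were closer on average to their own number. With 2 or 3 libraries a group and unknown depth, small differences of Nqo1, Cat and Sod2 could not be told from 0.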
